A study of Mus musculus with 9 samples.

Results

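The genes described here were 35 genes of B cell identity and B cell receptor function, out of 42454 genes in the deposited table. They were chosen by symbol from a list of B lineage genes drawn up with the comparison of gp91phox-/- and WT libraries in view, so their levels in gp91phox-/- are a description and carry no test. RNA had been sequenced from colon lamina propria macrophages, sorted as Ly6C low and MHC-II+ cells from mice aged 6 weeks, with 3 libraries from each of 3 genotypes: WT, p47phox-/- and gp91phox-/-. The labels name no strain, treatment or sex, and do not say whether the 3 libraries of a group came from separate animals. p47phox (gene Ncf1) is a cytosolic organizer of the phagocyte NADPH oxidase, and gp91phox (gene Cybb) is its membrane catalytic subunit.

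The B cell receptor is a membrane immunoglobulin held in a complex with the signalling chains CD79A and CD79B. On antigen binding, SRC family kinases such as BLK phosphorylate these chains, SYK is recruited, and the adaptor BLNK passes the signal to phospholipase C and calcium; CR2 amplifies it, whereas CD22, CD72 and SIGLEC-G carry inhibitory motifs. PAX5 and EBF1 set and hold B cell identity, and the receptors for BAFF and for the follicle chemokine CXCL13 place and maintain B cells in lymphoid tissue of the gut wall.

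Recovered reads were 31141107 to 52797368 per library. Genes with a read numbered 15825 to 17280 in WT and 18115 to 18760 in gp91phox-/-, but 17754, 14323 and 14268 in p47phox-/- replicates 1, 2 and 3. Chromosome X held 1362 genes of the table, all at 0 in each of the 9 libraries, and the gp91phox-/- label could therefore not be checked on Cybb. Ncf1 had 9957 ± 918 normalized counts in WT, 3195 ± 510.4 in p47phox-/- and 13039.5 ± 793 in gp91phox-/- (SD, n = 3), and was lower in p47phox-/- than in WT in limma (log2 fold change -1.65, adjusted p = 0.000348). Macrophage markers were high in all libraries. Adgre1 (F4/80) ranged from 31772 to 56194 normalized counts and Csf1r, the CSF-1 receptor, from 82181 to 128474.

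Promoter sequence is shown for 3 members with different outcomes: Vpreb3, which had no read in gp91phox-/-, Chst3, left at 0.288% of its WT level, and Fcrl1, which kept 28.5%. Each line gives the 250 bases before the start that RefSeq lists for the gene on GRCm38.p6, 5′ to 3′ on the gene's strand, and none of these bases lies in an exon of the gene in GENCODE M21. The start is also the 5′ end of the GENCODE gene for Chst3 and Fcrl1, whereas the GENCODE model of Vpreb3 reaches further upstream, to position 75943057. Capitals mark matches, on either strand, to the octamer ATTTGCAT bound by OCT factors, to TCCCNNGGGA bound by EBF1 or to GAGGAA bound by PU.1 and Spi-B.
Vpreb3, chr10:75948050-75948299, plus strand: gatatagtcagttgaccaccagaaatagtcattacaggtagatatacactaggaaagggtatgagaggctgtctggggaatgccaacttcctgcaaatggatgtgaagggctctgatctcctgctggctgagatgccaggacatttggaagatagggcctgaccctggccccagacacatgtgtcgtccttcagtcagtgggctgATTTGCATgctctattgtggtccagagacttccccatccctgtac
Chst3, chr10:60219261-60219510, minus strand: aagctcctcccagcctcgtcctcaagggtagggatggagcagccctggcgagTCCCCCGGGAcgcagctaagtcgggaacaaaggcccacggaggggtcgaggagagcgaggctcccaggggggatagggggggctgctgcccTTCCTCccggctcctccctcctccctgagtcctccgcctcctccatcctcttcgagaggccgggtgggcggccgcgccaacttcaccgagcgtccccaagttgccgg
Fcrl1, chr3:87376137-87376386, plus strand: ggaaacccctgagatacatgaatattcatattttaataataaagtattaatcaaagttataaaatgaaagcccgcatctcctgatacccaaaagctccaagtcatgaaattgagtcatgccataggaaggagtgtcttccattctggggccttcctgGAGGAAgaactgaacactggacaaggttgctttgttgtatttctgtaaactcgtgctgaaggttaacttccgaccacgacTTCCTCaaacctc
Of the 35 genes, 28 matched a promoter entry, in 33 windows of 300 bases (250 before to 50 after the RefSeq start). In 15 of the 33, the bases before the start overlapped an exon of the gene in GENCODE M21. The octamer was in the windows of Vpreb3 and Blnk only, 2 of 33 windows (6.06%), and in 1.74% of all 32851 promoters. The EBF1 motif was in those of Cd22 and Chst3, against 0.904% of all promoters. GAGGAA was in 14 of 33 windows (42.4%), against 28.3% of all promoters. These matches describe the letters of the windows only.

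The level left in gp91phox-/- fell into distinct ranges. Of the 35 genes, 21 had a gp91phox-/- mean at or under 5% of the WT mean, called near 0 here, 12 kept over 25%, called retained, and 2 lay between. The median was 1.86% of WT, and the range ran from 0 to 106%. Among 13781 genes with a WT mean of at least 10 normalized counts, 211 (1.53%) were at or under 5%. These 211 were made up of 21 of the genes described here, 120 immunoglobulin segments and 70 others. Since the genes were chosen on this contrast, nothing is read from their share. Just inside the threshold were Fam167a at 3.93% and Fcrla at 4.22%. Just outside it were Bcl11a at 6.72% and Siglecg at 7.07%, and the next gene above was Fcrl1 at 28.5%.

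**Figure D1:**
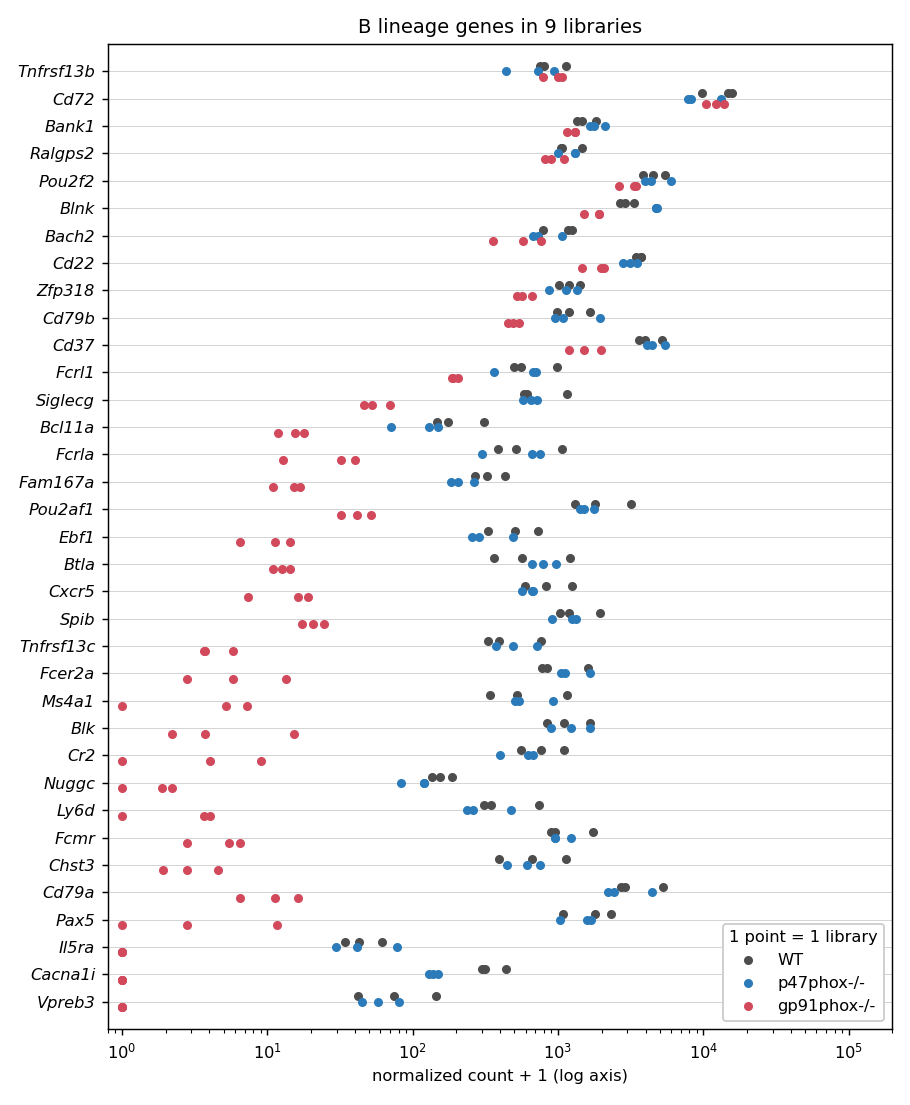
Normalized count + 1 on a log axis (x) for each of the 35 genes (y), 1 point per library, coloured by genotype. Genes are ordered by the level left in gp91phox-/-, from Tnfrsf13b at the top (106% of WT) to the 3 genes without a gp91phox-/- read at the bottom.

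Summed over the 21 genes near 0, the normalized count was 13270, 28136 and 16291 in WT replicates 1, 2 and 3 and 16123, 19957 and 12985 in p47phox-/-. In gp91phox-/- it was 137, 183 and 226, which is 0.714, 0.954 and 1.18% of the WT mean. The 12 retained genes summed to 37771, 34867 and 37669 in WT and to 27828, 25873 and 22626 in gp91phox-/-, or 75.7, 70.4 and 61.5% of the WT mean. Cd72, with a WT mean of 13492 and 90.2% left, weighed most in this sum. The median level left over the 12 retained genes was 56.5%. In bulk RNA, fewer cells of a type and less RNA per cell cannot be told apart, nor can RNA of the same gene from different cell types. Which cells the retained RNA came from was not tested. All 3 gp91phox-/- libraries were below all 3 WT libraries for 32 of the 35 genes, and for 18.2% of all genes tested. The exceptions were Cd72, Ralgps2 and Tnfrsf13b.

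The chains of the receptor complex parted. Cd79a (Igα, chr7:24897381-24902197, GRCm38, plus strand) had 2892, 5299 and 2729 normalized counts in WT, 2412, 4439 and 2219.8 in p47phox-/-, and 5.46, 10.3 and 15.2 in gp91phox-/-. This left 0.283% of the WT mean, from 40 reads over the 3 libraries. Scaled by the size factors, the pooled reads of WT exceeded those of gp91phox-/- 362-fold, with a 95% interval of 266 to 507 that covers counting error only. Cd79b (Igβ, chr11:106311341-106314762, minus strand) had 976, 1657 and 1181 in WT, 1089, 1933 and 952 in p47phox-/- and 538, 486 and 454 in gp91phox-/-, 38.7% of the WT mean. All gp91phox-/- libraries were below all WT libraries for both chains, but by different amounts. Per kb of exon, Cd79a stood at 2.27 to 3.14 times the level of Cd79b in the WT libraries and at 2.18 to 2.29 times in p47phox-/-. In gp91phox-/- the ratio was 0.00997 to 0.0329. This pair, like the other ratios between genes given here, was picked after its values had been seen, and exon lengths come from GENCODE M21.

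Among the coreceptors and other regulators of the receptor, 2 were near 0. Cr2, complement receptor 2, had 553, 1096 and 765 normalized counts in WT and 0, 3.02 and 8.05 in gp91phox-/- (0.459%). Ms4a1, which encodes CD20, had 340, 1161 and 522 in WT and 0, 4.22 and 6.26 in gp91phox-/- (0.518%). The inhibitory lectin Siglecg was intermediate, with 579, 1155 and 609.9 in WT and 45.5, 51.3 and 68.9 in gp91phox-/-. Its relative Cd22, also an inhibitory sialic acid receptor, had 3717, 3729 and 3425 in WT, 2817, 3468 and 3111 in p47phox-/-, and 2059, 1962 and 1455 in gp91phox-/-. Cd22 thus kept 50.4% of its WT level, and with an SD of 4.75% of its mean it was the most even of the 35 genes within WT. The tetraspanin Cd37 kept 36.6%. Cd72, an inhibitory receptor, had the highest level per kb of all 35 genes in WT. Its counts were 14885, 9723 and 15867 in WT, 7793, 13192 and 8204 in p47phox-/- and 13785, 12244 and 10475 in gp91phox-/-, and these ranges overlapped.

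Of the kinase and adaptors, only the kinase was near 0. Blk had 841, 1662 and 1099 normalized counts in WT and 2.73, 1.21 and 14.3 in gp91phox-/- (0.507%). The adaptor Blnk had 3332, 2664 and 2899 in WT and 1925, 1917 and 1506 in gp91phox-/- (60.1%). Bank1, a scaffold protein of the pathway, kept 81.2%, and Ralgps2, an exchange factor for RAL, kept 78.4%. The ratio of Blk to Blnk per kb was 0.561 to 1.39 in WT and 0.00140 to 0.0211 in gp91phox-/-.

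The 8 transcription factors and coactivators ranged from 0.242 to 68.5% of WT. Pax5 had 1078, 2303 and 1800.4 normalized counts in WT, 1576, 1674 and 1037 in p47phox-/- and 0, 1.81 and 10.7 in gp91phox-/- (0.242%). Ebf1 had 331, 731 and 505 in WT and 5.46, 10.3 and 13.4 in gp91phox-/- (1.86%). These are the 2 factors that hold B cell identity, and both were near 0. Spib, an ETS factor, was left at 1.43% and Pou2af1, the OCT coactivator OBF-1, at 1.95%, with 51.0, 40.4 and 31.3 normalized counts in gp91phox-/-. Pou2f2, which encodes the OCT2 protein that this coactivator binds, had 5408, 3834 and 4478 in WT and 2645, 3439 and 3312 in gp91phox-/- (68.5%). The ratio of Pou2af1 to Pou2f2 per kb was 0.776 to 2.69 in WT, 0.761 to 1.31 in p47phox-/- and 0.0306 to 0.0623 in gp91phox-/-. Bach2, a repressor that restrains plasma cell differentiation, kept 52.9%, with 577, 762 and 355 in gp91phox-/- against 782, 1252 and 1167 in WT. Its gp91phox-/- libraries overlapped those of p47phox-/- (1068, 674 and 725). Zfp318, needed for IgD expression, kept 48.3%. Bcl11a, a zinc finger transcriptional repressor, was intermediate, with 147, 309.9 and 175 in WT and 14.6, 10.9 and 17.0 in gp91phox-/-.

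Of 6 further genes, for surface proteins and Fc receptor-like proteins, 5 were near 0. Fcmr, the receptor for IgM, was left at 0.329%, Ly6d, an early B lineage marker, at 0.410%, Fcer2a (CD23) at 0.594%, Btla, an inhibitory receptor, at 1.64% and Fcrla, an intracellular Fc receptor-like protein, at 4.22%. Fcrl1, an Fc receptor-like protein, was the lowest of the retained genes: it had 495, 982 and 551 normalized counts in WT and 204, 186 and 188 in gp91phox-/-.

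Among receptors for chemokines and cytokines, the BAFF receptors parted as the CD79 chains had. Tnfrsf13c, the BAFF receptor proper, had 326, 760.0 and 392 normalized counts in WT and 2.73, 4.83 and 2.68 in gp91phox-/- (0.692%). Tnfrsf13b (TACI), which binds BAFF and APRIL, had 749.9, 1126 and 803 in WT, 941, 438 and 726 in p47phox-/- and 1057, 793 and 994 in gp91phox-/-. At 106% of the WT mean, Tnfrsf13b was the single gene of the 35 whose gp91phox-/- mean was not below that of WT. Cxcr5, the receptor for CXCL13, was left at 1.49%. Il5ra, the IL-5 receptor chain, had 33.1, 60.2 and 42.1 in WT and 0 reads in gp91phox-/-, which is at least 59.2-fold lower when 3 reads over the group are taken as the floor.

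The remaining 5 genes were all near 0. Cacna1i, a T-type calcium channel subunit, had 298, 436 and 315 normalized counts in WT, 128, 149 and 136 in p47phox-/- and no read in gp91phox-/-, at least 458-fold below WT. Vpreb3 had 72.9, 144 and 41.1 in WT and no read in gp91phox-/-, at least 116-fold below WT. Chst3, a chondroitin sulfotransferase, was left at 0.288%, and Nuggc, a germinal centre GTPase, at 0.443% from 3 reads in all. Fam167a was left at 3.93%.

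Levels this low rest on few reads, and single libraries moved some of them by over 1.5 times. Without gp91phox-/- replicate 3, the level left was 0.0524% for Pax5, 0.164% for Blk, 0.187% for Cr2, 0.186% for Chst3, 0.309% for Fcer2a and 0.313% for Ms4a1. Ms4a1 was left at 0.811% without WT replicate 2 and 0.778% without gp91phox-/- replicate 1. Btla was left at 2.51% without WT replicate 2, and Nuggc at 0.283% without gp91phox-/- replicate 2. All of these remained near 0.

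**Figure D2:**
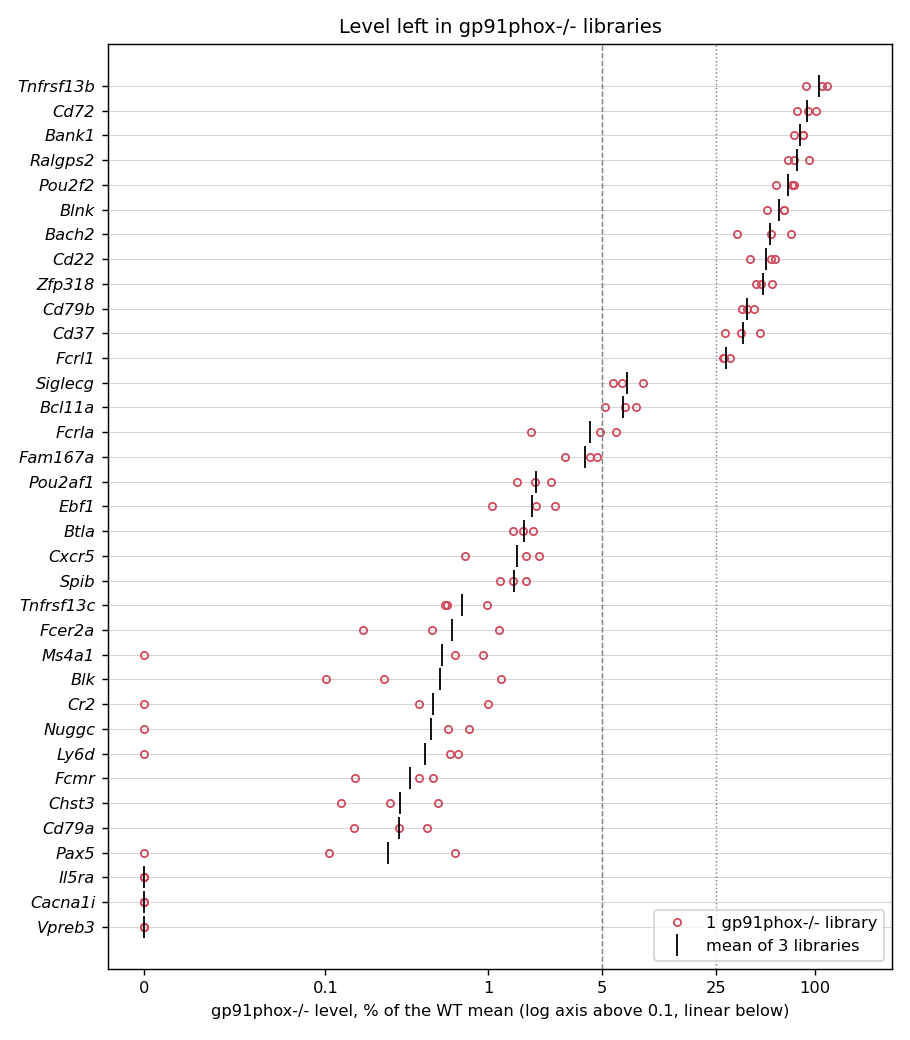
Level in gp91phox-/- as a percent of the WT mean (x, log axis above 0.1 and linear below) for each of the 35 genes (y). Circles are single libraries, bars the mean of 3 libraries, and the dashed and dotted lines stand at 5 and 25%; the gap between Siglecg (7.07%) and Fcrl1 (28.5%) holds no gene.

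The WT libraries also varied among themselves, a measure described here after the values had been seen. WT replicate 2 was the highest WT library for 21 of 21 genes near 0, both intermediate genes and 9 of 12 retained genes, and for 35.8% of all genes tested. The ratio of WT replicate 2 to the mean of the other WT libraries had a median of 1.89 over the genes near 0 (range 1.28 to 2.69) and 1.29 over the retained genes (0.632 to 1.88). Over all genes tested its median was 0.998, with 10% of genes below 0.581 and 10% above 1.57. Ms4a1 had the greatest ratio, and Cd72, Pou2f2 and Blnk were the retained genes in which replicate 2 was not the highest. No test was made, since the genes share their libraries and the WT values entered the choice of genes.

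**Figure D3:**
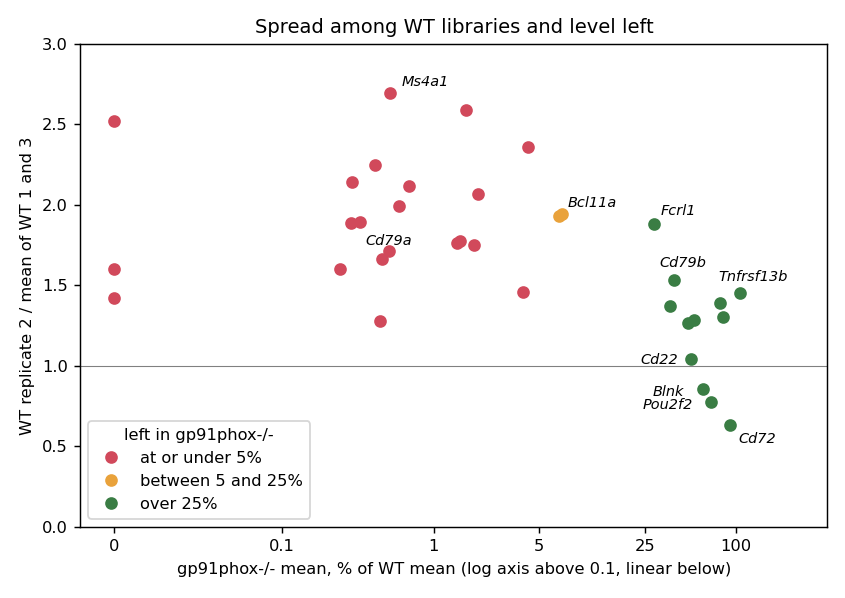
Ratio of WT replicate 2 to the mean of WT replicates 1 and 3 (y) against the level left in gp91phox-/- as a percent of WT (x, log axis above 0.1 and linear below), 1 point per gene. All genes at or under 5% lie above 1, from 1.28 to 2.69, and Cd72, Pou2f2 and Blnk lie below 1.

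The pattern of Cd79a over the 9 libraries was compared with those of 10610 candidates with a WT mean of at least 50. The B lineage genes chosen for description, immunoglobulin segments and genes with provisional symbols were left out of the candidates. Whether the genes left out lay closer to Cd79a was not assessed. The candidates most like Cd79a included Carmil2, Gimap3, Gimap8, Ltb, Hs3st1, Ptprcap, Trp53i11, Ablim1 and Acap1. Their Pearson's r with Cd79a on log2 values was 0.989 to 0.994. This is a description with no p, since the 9 points share 3 genotypes and their libraries. Carmil2 had 439, 839 and 464 normalized counts in WT, 425, 565 and 287 in p47phox-/- and 14.6, 16.3 and 29.5 in gp91phox-/-, so its gp91phox-/- libraries lay below all others. Among the same candidates, the nearest to Cd79b were Gimap7, Rabep2, Neil1, E4f1 and H2-Ob (r of 0.977 to 0.995). H2-Ob, a chain of the class II chaperone H2-O, was left at 22.4% of WT, and Rabep2 at 51.9%.

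In p47phox-/-, 34 of the 35 genes were not called as different from WT. On simulated data, 30% of 2-fold and 66% of 4-fold changes were recovered in this comparison, so a gene not called may still differ. The comparison was not used to choose the 35 genes, although it shares the WT libraries with the one that was. The 1 called gene, in limma at an adjusted p under 0.05, stands beside 162 of all 14404 genes tested (1.12%), and 2 of the 35 had an unadjusted p under 0.05. The median log2 fold change was -0.21 over the 35 genes and -0.02 over all genes tested; 12 were above 0 and 23 below. For 4 of the 35 (Blnk, Cacna1i, Nuggc and Fam167a) the p47phox-/- and WT libraries did not overlap, as was so for 17.7% of all genes tested.

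Blnk was the called gene. It had 4691, 4756 and 4788 normalized counts in p47phox-/- against 3332, 2664 and 2899 in WT, so each p47phox-/- library was above each WT library (log2 fold change 0.68, SE 0.14, limma adjusted p = 0.0343). In gp91phox-/- its counts were below both. The call was lost, with an adjusted p of 0.0519 to 0.326, in 11 of 20 alternatives. Among these were leaving out WT replicate 2 (0.102) or 3 (0.144), p47phox-/- replicate 1 (0.0534), 2 (0.0535) or 3 (0.125), or gp91phox-/- replicate 2 (0.0535), and edgeR on the recovered reads (0.0543). p47phox-/- replicates 2 and 3 had fewer genes with a read than the other libraries. Without both of them, an alternative added after the data were seen, the adjusted p for Blnk was 0.326. Cacna1i was lower in p47phox-/- by the largest fold of the 35 genes but was not called (log2 fold change -1.32, SE 0.44, limma adjusted p = 0.177). DESeq2 (adjusted p = 0.000620) and limma without the mean-variance trend (0.0371) did call it.

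**Figure D4:**
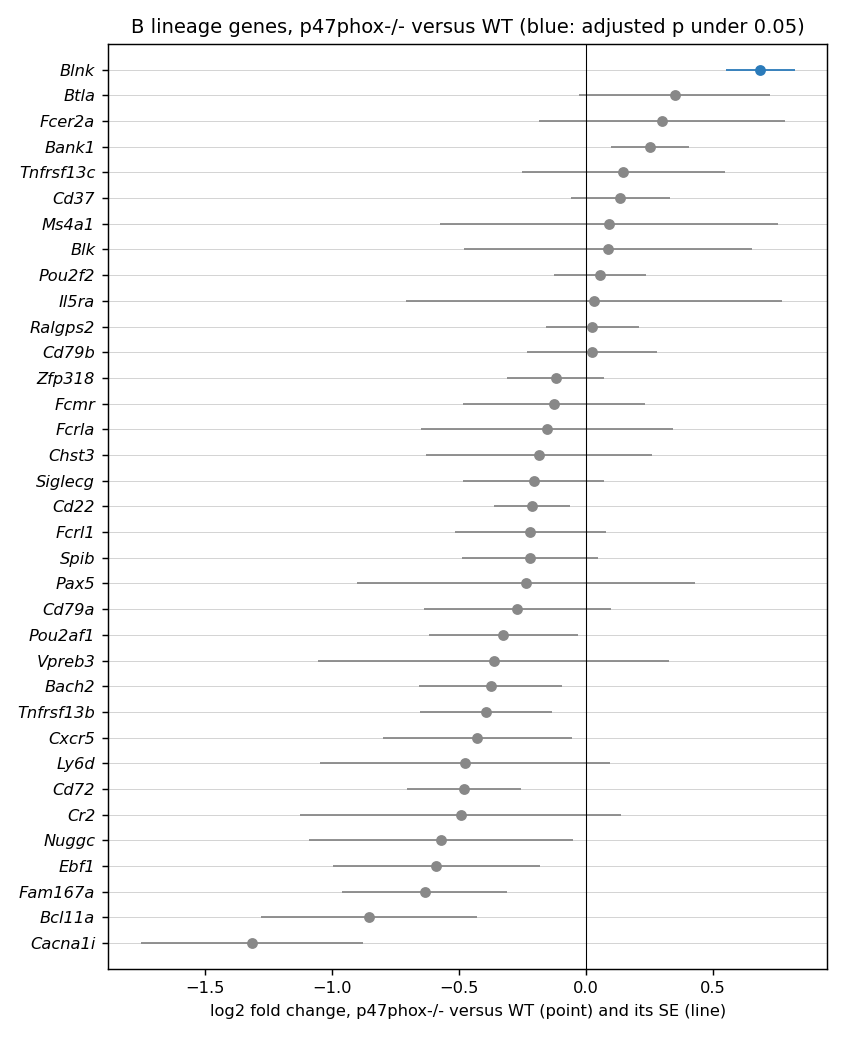
Log2 fold change of p47phox-/- versus WT (x, points) with its standard error (lines) for each of the 35 genes (y), blue where the adjusted p was under 0.05. Blnk at 0.68 is the only blue point, and Cacna1i at -1.32 lies lowest.

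Other genes of B cell receptor signalling, outside the 35, were mostly not called in gp91phox-/- versus WT, where 7.05% of all genes tested were called (4.53% lower and 2.53% higher). Of 33 signalling genes, 6 were lower and 0 higher, with 9 at an unadjusted p under 0.05, and their median log2 fold change was -0.16 against 0.006 over all genes. This list and those below were drawn up with earlier results of these data known. Rasgrp3, a RAS exchange factor activated by diacylglycerol, had 479.8, 903 and 775 normalized counts in WT and 115, 45.9 and 99.3 in gp91phox-/- (log2 fold change -3.09, SE 0.38, limma adjusted p = 0.000366). Rasgrp2, a related exchange factor, fell by 1.83 on the log2 scale. Syk, the kinase recruited to the CD79 chains, had 33402, 31739 and 33309 normalized counts in WT and 20839, 21880 and 23529 in gp91phox-/-. On the log2 scale Syk fell by 0.57 and the adaptor Grb2 by 0.46. The calls of Syk and Grb2 were lost when single WT or gp91phox-/- libraries were left out: Syk without WT replicate 1 (adjusted p = 0.0644), WT replicate 3 (0.0652), gp91phox-/- replicate 1 (0.0560) or gp91phox-/- replicate 2 (0.0744), and Grb2 without any one of these 6 libraries (0.0593 to 0.0895).

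Most immunoglobulin constant genes fell too. Of 11 tested, 9 were lower and 0 higher in gp91phox-/- versus WT, with a median log2 fold change of -5.13. Igha, the heavy chain of IgA and the main class in the gut, had 75935, 185267 and 56997 normalized counts in WT and 2525, 5292 and 1403 in gp91phox-/- (log2 fold change -5.13, limma adjusted p = 0.000162). Ighd was left at 3.04% and Igkc at 4.23%. Ighm, singled out after its values were seen, was left at 34.3%, with 4257, 3738 and 2858 normalized counts in gp91phox-/- against 8673, 14028 and 8960.0 in WT (log2 fold change -1.53, limma adjusted p = 0.00112). Ighg3 fell in both knockouts, with a log2 fold change of -8.20 in gp91phox-/- and -5.03 in p47phox-/- (limma adjusted p = 9.3e-05 and 0.0150). The p47phox-/- call was lost without any one WT library (0.0587 to 0.0680) or p47phox-/- replicate 3 (0.0634).

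Of 20 plasma cell genes tested, 6 were lower and 1 higher in gp91phox-/-. Jchain, the joining chain of IgA and IgM, had 6743, 19473 and 6603 normalized counts in WT and 618, 1521 and 404 in gp91phox-/- (log2 fold change -3.72, limma adjusted p = 0.000707). Iglv1, an immunoglobulin segment that stood in this list and is counted among the 6, had a log2 fold change of -6.17. The log2 fold change was -4.25 for Mzb1, -2.90 for Derl3, -2.66 for Eaf2 and -0.72 for Txndc5, all lower, and 0.85 for Tent5c, the 1 that rose. The Derl3 call was lost without WT replicate 2 (adjusted p = 0.0562) and that of Txndc5 in 11 of 20 alternatives (up to 0.149), among them the fits without WT replicate 1 or 2, p47phox-/- replicate 3 or any one gp91phox-/- library. The other 13 were not called. Among them were Sdc1, at 76.6% of WT, and Tnfrsf17, at 70.0% with a WT mean of 45.2 (limma adjusted p = 0.446 and 0.504). Xbp1, Prdm1 and Irf4, factors of plasma cells that other cells also make, stood at 84.7, 139 and 90.4% of WT and were not called either.

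Of 39 other B cell and germinal centre genes, 16 were lower and 3 higher in gp91phox-/-. Ccr6, a chemokine receptor, had 313, 894 and 682 normalized counts in WT and 4.55, 0.603 and 4.47 in gp91phox-/- (log2 fold change -7.30, limma adjusted p = 9.41e-06). The log2 fold change was -5.17 for the lymphoid factor Ikzf3, -4.80 for Fcrl5, -2.49 for Cd24a and -2.44 for the factor Ets1. Scd1, a fatty acid desaturase that is no B cell identity gene though it stood in this list, had -5.33. The 3 higher genes, named after their values were seen, were the costimulatory receptor Cd40, at 224% of WT (log2 fold change 1.14, limma adjusted p = 0.00326), the ectoenzyme Cd38 (log2 fold change 0.99, adjusted p = 0.00654), and the costimulatory ligand Cd80, at 146% (log2 fold change 0.53, adjusted p = 0.0474). All 3 are also made by macrophages. The call of Cd38 was lost without the mean-variance trend, and that of Cd80 in 12 of 20 alternatives (adjusted p up to 0.188), among them the fits without any one WT library, p47phox-/- replicate 1 or 3, or gp91phox-/- replicate 2 or 3.

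**Figure D5:**
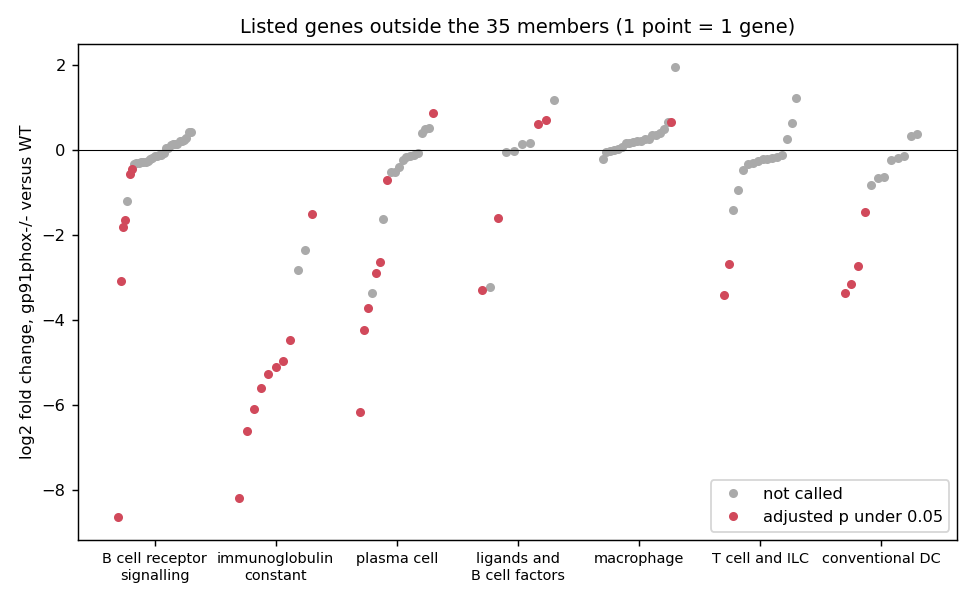
Log2 fold change of gp91phox-/- versus WT (y) for genes outside the 35, by list (x), 1 point per gene, red where the limma adjusted p was under 0.05. Immunoglobulin constant genes have a median of -5.13, B cell receptor signalling genes of -0.16, and macrophage markers have 1 called gene of 20.

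Of 10 factors that act on B cells, 2 were higher, 2 lower and 6 not called in gp91phox-/-. Tnfsf13b (BAFF) had 696, 389.9 and 766 normalized counts in WT, 480.1, 618 and 494 in p47phox-/- and 589.6, 606 and 507 in gp91phox-/-, and was not called (limma adjusted p = 0.918 in gp91phox-/-). Cxcl13, the ligand of CXCR5, had 353, 451 and 677 in WT, 617, 531 and 433 in gp91phox-/- and 214, 131 and 74.3 in p47phox-/-. Cxcl13 was lower in p47phox-/- than in WT (log2 fold change -1.89, SE 0.35, limma adjusted p = 0.0262), a call lost without WT replicate 2 (0.0670) or 3 (0.137) or p47phox-/- replicate 3 (0.0765). It was also lost with only the groups compared (0.0655) and without the mean-variance trend (0.119). Without p47phox-/- replicates 2 and 3 together, the log2 fold change of Cxcl13 was -1.15. In gp91phox-/- the log2 fold change was -3.32 for Ltb, a lymphotoxin chain, and -1.62 for Cd200, while Tnfrsf14, the ligand of BTLA, and complement C3 rose (0.70 and 0.61). C3 was lower in p47phox-/- versus WT (log2 fold change -0.92, limma adjusted p = 0.00783). That C3 call was lost without p47phox-/- replicates 2 and 3 together (0.147). In gp91phox-/- the call of Cd200 was lost without any one WT library (0.0775 to 0.0966) and without replicate 1 (0.0827) or 2 (0.134) of the knockout. Tnfrsf14 lost its call without WT replicate 1 (0.0524) and without knockout replicate 2 (0.0599) or 3 (0.0563), and C3 without WT replicate 2 (0.0679) or 3 (0.0721) and without knockout replicate 2 (0.0720) or 3 (0.0630).

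Some genes listed as markers of other cells were lower too, though which cells their RNA came from was not tested. Of 16 T cell and innate lymphoid genes tested, 14 were not called, 0 were higher and 2 were lower in gp91phox-/-: Cd2, at 8.80% of WT, and Lck, at 15.1%. All 20 genes of that list, tested or not, summed to 8721 to 15144 in WT and 10803 to 14542 in gp91phox-/-. Cd3e had at most 13.3 normalized counts in any library. Of 12 conventional dendritic cell genes, 4 were lower: Flt3 at 8.41%, Cd209a at 11.4%, Itgae at 13.1% and Ccr7 at 35.5% of WT. That list summed to 8645 to 13114 in WT and 5499 to 6980.0 in gp91phox-/-. Ccr7 also stood in the list of other B cell and germinal centre genes, and was counted among the lower genes there. Of 20 macrophage markers, 1 was higher (Fcgr1, log2 fold change 0.65) and 0 lower, and of 12 plasmacytoid dendritic cell markers 1 was higher (Lair1, log2 fold change 1.07). Ly6d and Spib, also listed as plasmacytoid markers, are not among these 12, since they belong to the 35 genes. They were left at 0.410% and 1.43% of WT. The Fcgr1 call was lost without WT replicate 2 (adjusted p = 0.0996) or 3 (0.0720) and without gp91phox-/- replicate 2 (0.0894) or 3 (0.0906). Of 10 fibroblast genes, Acta2 and Sparc were higher. Acta2 was no longer called without WT replicate 2 (0.106), WT replicate 3 (0.104), knockout replicate 2 (0.130) or knockout replicate 3 (0.104), nor Sparc without WT replicate 2 (0.0834) or 3 (0.0899) or knockout replicate 3 (0.103). None of 9 epithelial or 4 granulocyte genes tested was called in limma, with 1 and 0 at an unadjusted p under 0.05. The part of these cells in the levels of the 35 genes was not tested. In p47phox-/-, the fibroblast genes Acta2, Sparc and Col3a1, the macrophage gene Cd163 and the plasmacytoid gene Siglech rose and Runx2 fell, with adjusted p of 0.00432 to 0.0395 in limma. All of these but Siglech lost the call without WT replicate 3 (0.0566 to 0.179), and Siglech lost it without p47phox-/- replicates 2 and 3 together (0.109). The comparison of gp91phox-/- with p47phox-/- reuses these libraries and called 9.93% of all genes tested in limma. It called 37 of the 46 genes reported by name from the lists under the naming rule, Ighm included, and since these had been named for a call against WT, nothing is read from that share.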

How the data were processed

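RNA of 9 libraries was sequenced. An RNeasy kit was used for extraction, per the labels' protocols; base calls were converted with bcl2fastq 2.19, reads trimmed with Cutadapt, aligned to mm10 with STAR 2.5.2b and counted with featureCounts, and DESeq2 is named in the submitters' processing notes. The gene annotation and strand are not given in the sources used here, so reads of overlapping genes cannot be told apart. The unit of the deposited table is a signal, namely counts that the authors scaled by 1 size factor per library. Each value was a whole multiple of a step, so whole reads were recovered for 100% of values (tolerance 0.01), with size factors of 1.05 to 1.66.

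Values were transformed to log2(normalized count + 1), which understates changes of low genes. A gene was tested if it reached 10 normalized counts in 3 or more libraries (14404 genes, including all 35 members). The test was limma 3.58.1 (R 4.3.3), in 1 fit of 9 libraries with a mean-variance trend and Benjamini-Hochberg adjustment over all, with calls at an adjusted p under 0.05. Count tests on recovered reads (edgeR 4.0.16 and DESeq2 1.42.0) were alternatives: edgeR called 133 genes in p47phox-/- versus WT and 973 in gp91phox-/- versus WT. On simulated data with the real means, 2-fold changes were recovered in 30% of genes for p47phox-/- versus WT and 41% for gp91phox-/- versus WT, and 4-fold changes in 66% and 70%; false calls were 6 of 102 and 11 of 122.

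Percent left is the gp91phox-/- mean over the WT mean. Ratios of pooled reads, each group's reads divided by its summed size factors, have exact 95% conditional intervals, and the floor was 3 reads over a group. Genes outside the 35 were named from hand-made lists if called with a mean of at least 50, up to 8 per list by absolute fold change; ligands, plasma cell and immunoglobulin constant genes could all be given. Members and lists were chosen with earlier results of these data known, and motifs after the files had been seen. Some results are not reported here, though counts and lists include them. Where libraries are not separate animals, p-values measure only the spread between samples, which may be technical.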

Additional observations from a re-analysis of the deposited data

Results flagged for a closer look

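Blnk moved in opposite directions in the knockouts: every p47phox-/- library was above and every gp91phox-/- library below every WT library. Of all genes tested, 17.7% had p47phox-/- and WT libraries that did not overlap, and 18.2% had all gp91phox-/- libraries below all WT libraries. The log2 fold change of Blnk in p47phox-/- versus WT was 0.68, a call lost in 11 of 20 alternatives. The difference between the knockouts was not tested, since the gene was chosen on the gp91phox-/- contrast.

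Among 46 genes outside the 35 that had been named because they were called in a knockout versus WT, 37 also differed between the knockouts in limma (adjusted p up to 0.0447), beside 9.93% of all genes tested. The same libraries served both comparisons, so the choice of these genes largely set that outcome, and the values are a description. The log2 difference, gp91phox-/- minus p47phox-/-, is given after each name. Immunoglobulin genes were lower in gp91phox-/-: Iglc3 (-5.76), Ighd (-5.12), Iglc2 (-4.57), Igha (-4.19), Iglc1 (-4.07), Igkc (-4.01), Iglv1 (-3.89), Ighg2b (-3.81), Ighg3 (-3.17) and Ighm (-1.54). Other B cell and plasma cell genes were lower as well: Ccr6 (-7.12), Ikzf3 (-5.03), Fcrl5 (-3.86), Mzb1 (-3.89), Jchain (-3.44), Eaf2 (-2.38), Cd24a (-2.33) and Ets1 (-2.21). Signalling genes that were lower were Rasgrp3 (-2.92) and Rasgrp2 (-1.58). Genes from the lists of dendritic and T cells that were lower were Cd209a (-3.54), Cd2 (-3.39), Flt3 (-3.32), Itgae (-3.13), Lck (-2.90), Ccr7 (-1.64) and Siglech (-1.01). Also lower were Scd1 (-4.83), Ltb (-3.20) and Cd200 (-1.50). Genes higher in gp91phox-/- than in p47phox-/- were Cxcl13 (2.02), C3 (1.54), Tent5c (1.07), Tnfrsf14 (1.05), Lair1 (0.81), Fcgr1 (0.62) and Creld2 (0.55).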

How the results depend on the processing

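The count of 21 genes near 0 was 19 at a threshold of 2%, 23 at 10%, 20 with medians, 21 with TMM scaling and 20 to 21 with single libraries left out. Genes called in B cell receptor signalling in gp91phox-/- versus WT were 4 to 6 in every alternative run and 4 to 6 with single libraries left out. Of the 35 genes, the number called in p47phox-/- versus WT was 0 with only the groups compared, 0 in edgeR, 2 in DESeq2, 0 to 1 with single libraries left out and 0 without p47phox-/- replicates 2 and 3 together. Over all genes, p47phox-/- versus WT gave 101 with only the groups compared, 52 without the mean-variance trend, 678 in DESeq2, 47 to 235 with single libraries left out and 16 without p47phox-/- replicates 2 and 3 together. For gp91phox-/- versus WT it gave 596 without the trend, 1754 in DESeq2 and 520 to 1543 with single libraries left out. The cause was not tested; fewer libraries entered the fits that left some out. With the replicate number as a block, calls were 0 of the 35 genes, 127 and 877 genes in the comparisons, and 5 signalling genes. Deviations of same-numbered libraries correlated at -0.04 to 0.08, which gives no sign of pairing. No value of a called gene changed sign. Values of the 35 genes here are log2 fold changes in p47phox-/- versus WT across alternatives. Of these, 640 kept their sign and stayed called or not called, as in the main fit. Another 46, all of genes not called in the main fit, changed sign, while 11 lost and 2 gained a call. Levels of genes near 0 rest on 0 to 158 reads in gp91phox-/-.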
